A study of Rattus norvegicus with 9 samples.

Results

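The genes described here are Rest, which encodes a transcriptional repressor, and Syn1 and Snap25, which encode proteins of the nerve terminal and are known as Rest target genes. They were chosen by their rat Ensembl identifiers, ENSRNOG00000002074 for Rest, ENSRNOG00000010365 for Syn1 and ENSRNOG00000006037 for Snap25, and make up 3 of the 32545 genes counted. The tissue was dorsal hippocampus from Sprague-Dawley rats, an outbred laboratory stock; all were males aged 8 weeks, and their messenger RNA was sequenced. Of the 9 rats, 4 had control rearing (CTL) and 5 had gone through early-life adversity (ELA), that is, stressful conditions in infancy. None had been tested for behaviour. The labels describe no procedure for the adversity, no litter and no sequencing batch, and no allele or drug treatment is named for either group. Each rat gave 1 library, so a replicate is 1 animal, and rats are named by group and replicate number.

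Rest, also called NRSF, is a zinc-finger protein that binds a DNA element called RE1 and recruits corepressor complexes with histone deacetylases and demethylases. It keeps neuronal genes silent outside the nervous system, and its level falls as neurons mature, which releases its targets. Syn1 encodes synapsin I, a phosphoprotein on the outer face of synaptic vesicles that holds them in the reserve pool. Snap25 encodes a membrane-bound SNARE protein of the presynaptic terminal, which pairs with syntaxin and synaptobrevin to drive vesicle fusion.

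The stretches of the Rest and Syn1 promoters before the gene start are shown because RE1 is the element through which Rest acts, and because Rest and Syn1 are set against each other below. RefSeq sequences of build GRCr8, which is not the build of the counts, were found for 2 of the 3 genes. The Rest stretch is chr14:31233452-31233701 on the minus strand and the Syn1 stretch is chrX:3725495-3725744 on the plus strand, each 250 bases ending just before the annotated start. Capitals mark the searched motifs.
Rest: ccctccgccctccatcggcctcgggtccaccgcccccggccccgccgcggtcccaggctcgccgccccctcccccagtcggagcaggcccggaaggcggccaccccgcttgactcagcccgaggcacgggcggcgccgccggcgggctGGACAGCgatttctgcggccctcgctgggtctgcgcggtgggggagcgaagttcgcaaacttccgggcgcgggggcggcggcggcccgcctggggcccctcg
Syn1: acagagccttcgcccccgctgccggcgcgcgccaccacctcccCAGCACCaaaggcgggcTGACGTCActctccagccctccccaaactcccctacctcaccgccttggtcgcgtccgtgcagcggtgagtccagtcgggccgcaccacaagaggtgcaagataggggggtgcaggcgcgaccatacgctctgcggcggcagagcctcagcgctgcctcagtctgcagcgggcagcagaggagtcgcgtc
Short motifs, 3 in all, were searched on both strands, the core of the left part of RE1 (CAGCACC), the core of its right part (GGACAGC) and the core of the cyclic AMP response element bound by CREB (TGACGTC). The Syn1 stretch held the left RE1 core, 207 to 201 bases before the start, which 5.43% of the 33469 promoters in the table also hold in this window. The Rest stretch held the right RE1 core, 102 to 96 bases before the start, which 5.30% of promoters hold. Neither stretch held both cores in the order and 2-base spacing of the full element, a combination found in 8 promoters (0.0239%). The search took only exact letters inside the window, so an element with other letters, or one reaching beyond its edge, would be missed. The marked RE1 cores are therefore not shown to be parts of an RE1. A full element at either gene, at the edge of the window or outside it, may still exist. The Syn1 stretch also held the cyclic AMP response core at 1 site, between 190 and 183 bases before the start (2.80% of promoters). The letters of this site read the same on both strands, so its 2 overlapping matches, 1 per strand, are not separate sites. These matches are letters in a window, and the counts of the 9 rats give no binding at them. Both stretches were rich in G and C, at 80.0% for Rest and 69.6% for Syn1, against a median of 51.2% over all promoters.

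Reads assigned to genes ranged from 11049282 to 17089188 per library. Symbols were matched to these 3 identifiers alone, so markers of hippocampal neurons, glia or blood vessels were not analysed here and the labelled tissue was not checked against them. In whole tissue, fewer cells of a type and less RNA per cell cannot be told apart. One library stood apart from its group: in a principal component analysis of 500 other genes, those of highest variance, the first axis put control rat 1 at a score of -5.31 and control rats 2, 3 and 4 at 7.62, 9.25 and 12.8. The ELA rats spanned -12.3 to 3.64. This component leaves out the 3 genes but is not independent of them, since Syn1 and Snap25 followed it closely (below). The fold changes, correlations and ratios are therefore also given without control rat 1.

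Rest was represented by few reads, and its mean level was similar in both groups. The 4 control rats had 6.10, 6.80, 6.99 and 5.86 CPM (the reads of a gene scaled to the size of its library, with TMM factors) in the order of their replicate numbers. The 5 ELA rats had 6.33, 5.62, 7.32, 8.44 and 6.48 CPM. The groups overlapped, with the lowest value of all in ELA rat 2 and the highest in ELA rat 4. The means were 6.44 ± 0.542 CPM in control rats and 6.84 ± 1.08 CPM in ELA rats (SD, n = 4 and 5). The log2 fold change of ELA over control was 0.080 with a standard error of 0.13, a 1.06-fold difference, and did not pass the test (edgeR quasi-likelihood test, adjusted p = 0.915). Its 95% interval ran from 0.870-fold to 1.28-fold. Without ELA rat 4, the rat with the most Rest, the log2 fold change was -0.00074.

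The depth behind the Rest values limits how finely rats can be compared. Rest was represented by 78 to 109 reads per library. Counting alone gives a coefficient of variation of 10.5% at this depth, and the rats of one group varied by 13.4%. Counting error thus had the size of 62.2% of the variance between rats of a group. For Syn1, with 5449 to 9314 reads per library, that share was 0.541%, and for Snap25, with 20609 to 34483 reads, it was 0.177%. Differences between rats in Syn1 and Snap25 were therefore far larger than counting error.

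Syn1 was higher on average in the ELA rats, but not past the threshold. Control rats 1 to 4 had 558, 413, 386 and 412 CPM of Syn1. ELA rats 1 to 5 had 484, 655, 596, 497 and 453 CPM. Every ELA rat lay above control rats 2, 3 and 4, and control rat 1 lay above 3 of the 5 ELA rats. The means were 442 ± 78.0 CPM in control and 537 ± 84.8 CPM in ELA rats (SD, n = 4 and 5). The log2 fold change was 0.28 with a standard error of 0.13, a 1.22-fold difference with a 95% interval from 0.995-fold to 1.48-fold (edgeR, unadjusted p = 0.0549, adjusted p = 0.539).

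Snap25 had the same order of groups. Control rats 1 to 4 had 2166, 1578, 1484 and 1655 CPM of Snap25. ELA rats 1 to 5 had 1885, 2423, 2165, 1831 and 1834 CPM. Again every ELA rat lay above control rats 2 to 4, while control rat 1 was exceeded by ELA rat 2 alone. The means were 1721 ± 305 CPM and 2028 ± 261 CPM (SD, n = 4 and 5). The log2 fold change was 0.24 with a standard error of 0.12, a 1.18-fold difference with a 95% interval from 0.985-fold to 1.41-fold (edgeR, unadjusted p = 0.0688, adjusted p = 0.574).

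**Figure D1:**
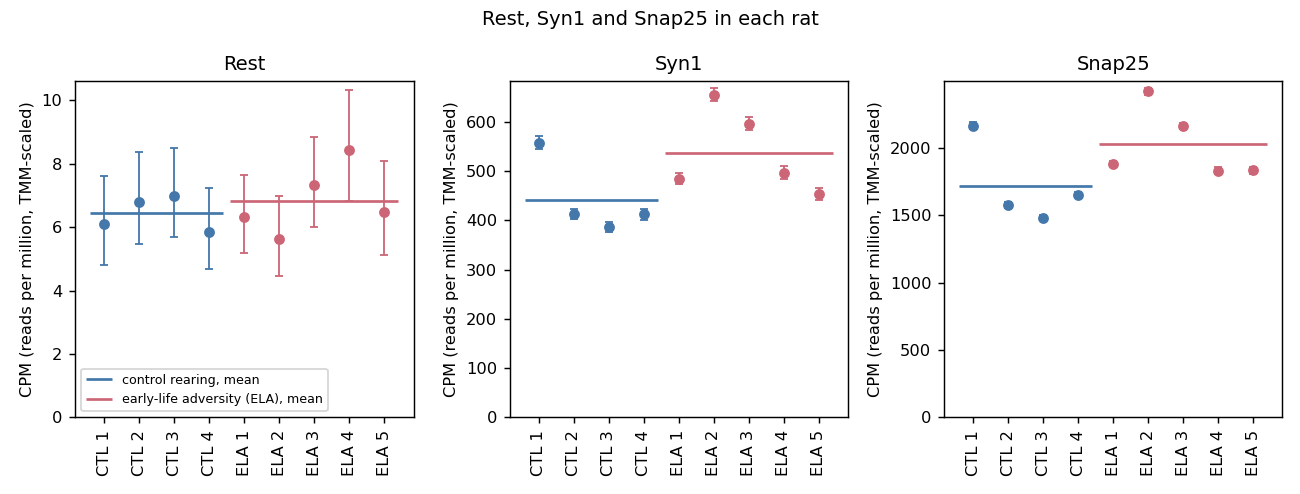
CPM of Rest, Syn1 and Snap25 (vertical axes, from 0) in each of the 4 control (CTL) and 5 ELA rats; points are single rats, bars are exact 95% Poisson intervals for counting error only, and lines are group means. The Rest intervals of all rats overlap, those of ELA rats 2 and 4 only just, whereas Syn1 and Snap25 are higher in control rat 1 and in every ELA rat than in control rats 2 to 4.

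Of the 3 genes, 0 passed an adjusted p of 0.05 by edgeR, compared with 0.0415% of the 14463 genes tested. At an unadjusted p under 0.05 the count was 0 of 3 by edgeR (9.4% of all genes tested), 1 of 3 by DESeq2 (Syn1, 6.12% of all genes) and 2 of 3 by limma-voom with sample weights (Syn1 and Snap25, 18.9% of all genes). At an adjusted p under 0.05 the count was 0 of 3 by DESeq2 too, against 0.98% of all genes, and 0 of 3 by limma-voom, against 1.2% of all genes. Exact permutation tests on the CPM of single genes, two-sided over all 126 assignments of the rats, gave p = 0.563 for Rest, 0.143 for Syn1 and 0.175 for Snap25. The groups overlapped in all 3 genes, whereas they did not in 3.04% of the genes tested.

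The Syn1 and Snap25 differences were larger when control rat 1 was left out. This rat had the most Syn1 and Snap25 of the control rats, so leaving it out was bound to raise both differences. The values without it are given as a description and not as separate support. Without this rat the log2 fold change was 0.41 with a standard error of 0.11 for Syn1 (edgeR, unadjusted p = 0.00417, adjusted p = 0.131) and 0.37 with a standard error of 0.099 for Snap25 (edgeR, unadjusted p = 0.00314, adjusted p = 0.114). The 5 ELA rats then lay wholly above the 3 control rats in both genes, as in 5.23% of all genes tested. Both had an unadjusted p under 0.05 with a higher level in ELA rats, as had 7.27% of the 14561 genes of that fit, and 0 of the 3 genes passed the adjusted threshold, against 0.893% of genes. With any other single rat left out, the log2 fold change was 0.20 to 0.34 for Syn1 and 0.16 to 0.27 for Snap25. In each of these fits it stayed positive and the adjusted p stayed above 0.05. For Rest the log2 fold change without control rat 1 was 0.054 (edgeR, adjusted p = 0.929).

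**Figure D2:**
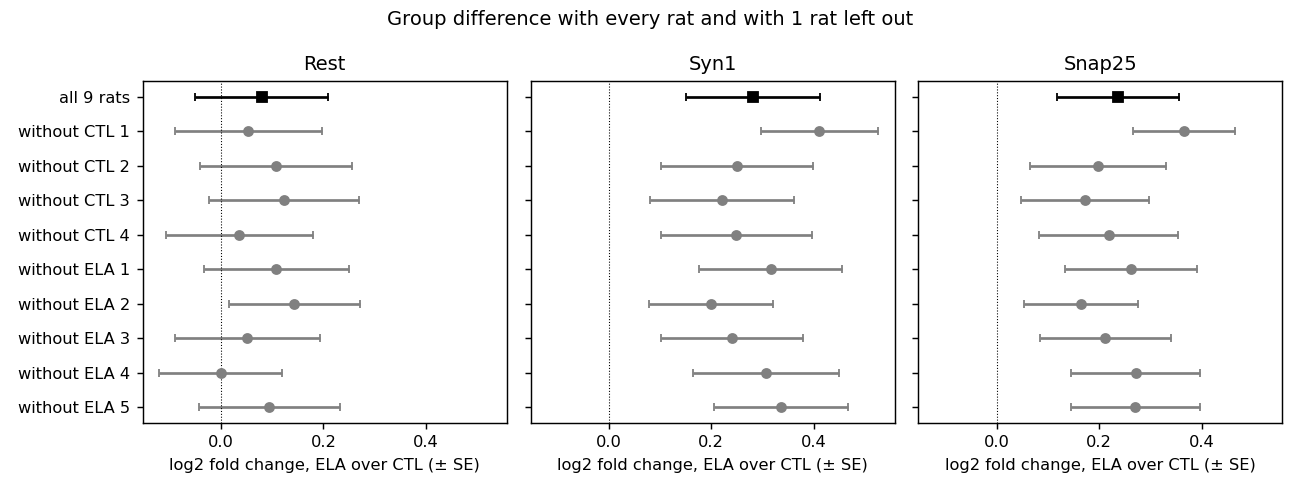
Log2 fold change of ELA over control (horizontal axis, shared by the panels, with its standard error) for the 3 genes with all 9 rats (black square) and with each rat left out (grey circles). Syn1 and Snap25 are farthest to the right without control rat 1, at 0.41 and 0.37, and Rest runs from -0.00074 to 0.14. Without ELA rat 2, Rest is at 0.14 and Snap25 at 0.16.

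Whether the repressor and the synaptic genes varied together was asked over the 9 rats in log2 CPM, with 3 pairs tested. Rest and Syn1 had Pearson's r = -0.161 (exact permutation p = 0.682, adjusted over the 3 pairs 0.682) and Spearman's rho = -0.133 (exact permutation p = 0.744, adjusted 0.744). Rest and Snap25 had r = -0.293 (exact permutation p = 0.449, adjusted 0.674) and rho = -0.433 (exact permutation p = 0.250, adjusted 0.375). No relation of Rest with either gene was detectable with 9 rats and this depth of Rest. The small negative values rested on 1 rat: without ELA rat 2, which had the least Rest and the most Syn1 and Snap25, r was 0.199 for Syn1 and 0.0044 for Snap25. Without ELA rats 2 and 4, the 2 farthest from the median of Rest, r was 0.137 and -0.0363. Without control rat 1 it was -0.101 and -0.230. With each group centred on its own mean, so that rearing adds nothing, r was -0.363 for Syn1 and -0.513 for Snap25 (exact permutation within groups, p = 0.361 and 0.166, adjusted 0.361 and 0.249).

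Syn1 and Snap25, in contrast, rose and fell together from rat to rat. Their r was 0.982 (exact permutation p = 4.4e-05, adjusted over the 3 pairs 0.000132) and their rho 0.917 (exact permutation p = 0.00131, adjusted 0.00394). With the groups centred r was 0.974 (exact permutation within groups, p = 0.00278, adjusted 0.00833). Without control rat 3 and ELA rat 2, the 2 farthest from the median of Syn1, r was 0.964, and with any 1 rat left out it ran from 0.972 to 0.988. Without control rat 1 the uncentred r was 0.983, so the uncentred relation did not rest on this rat. That value still holds the difference between the groups. An r with the groups centred was not computed without control rat 1.

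**Figure D3:**
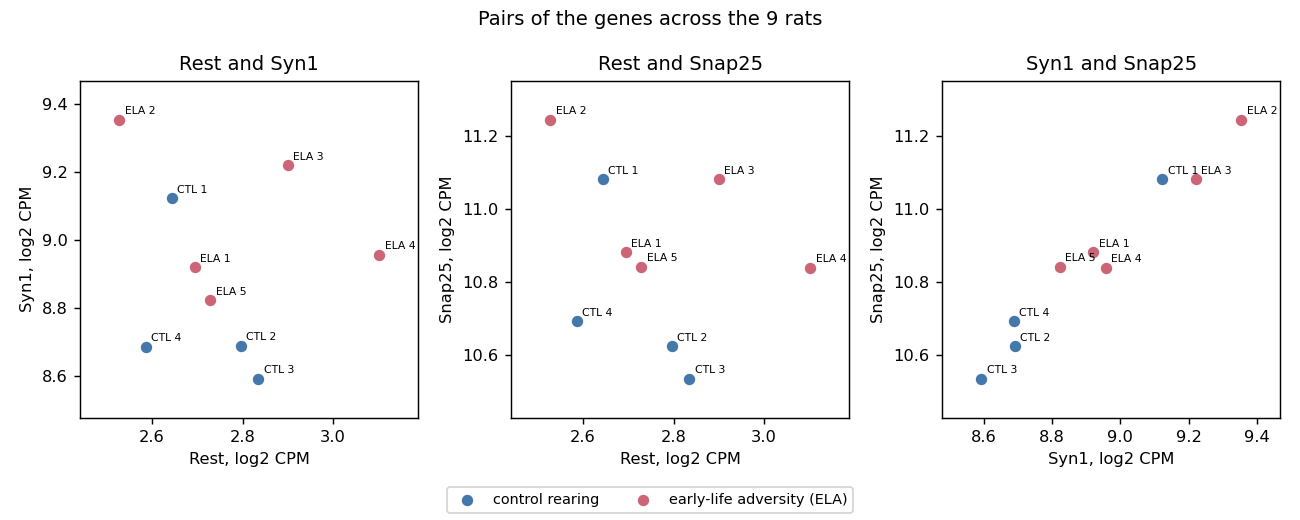
Log2 CPM of Rest against Syn1, Rest against Snap25 and Syn1 against Snap25, 1 point per rat, coloured by group. The points in the panel of Syn1 and Snap25 fall along a line (r = 0.982), with control rat 1 beside ELA rat 3, and those of the panels with Rest do not (r = -0.161 and -0.293).

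Ratios of 2 genes inside a library do not depend on how libraries are scaled. For every read of Syn1 there were 3.88, 3.82, 3.85 and 4.02 reads of Snap25 in control rats 1 to 4, and 3.89, 3.70, 3.63, 3.69 and 4.05 in ELA rats 1 to 5. These are ratios of reads, not of molecules, since the 2 transcripts differ in length. The ratio was nearly the same in every rat and the groups overlapped. Its SD within groups was 0.054 on the log2 scale, whereas the level of Syn1 had 0.23 and that of Snap25 0.21. The group difference of this log2 ratio, ELA minus control, was -0.039 (exact permutation p = 0.349), and -0.040 without control rat 1 (exact permutation p = 0.393).

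The ratios to Rest spread more. Reads of Syn1 per read of Rest ranged from 55.2 to 91.3 in control rats and from 58.9 to 116 in ELA rats, with the highest value in ELA rat 2 and the lowest in control rat 3. The log2 ratio averaged 6.06 ± 0.313 in control and 6.26 ± 0.362 in ELA rats (SD, n = 4 and 5). That difference of 0.21 did not pass (exact permutation p = 0.405). The log2 ratio of Snap25 to Rest differed by 0.17 (exact permutation p = 0.492). Adjusted over the 3 ratios, each p was 0.492. Single rats moved both differences strongly. Without control rat 1 they were 0.35 for Syn1 and 0.31 for Snap25, and without ELA rat 4 they were 0.31 and 0.28. Without ELA rat 2 they were 0.066 and 0.036, and without control rat 3 they were 0.11 and 0.063. The Snap25 difference was 0.10 without control rat 2. The adjusted exact permutation p was at least 0.348 in each of these.

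The likeness of each of the 3 genes to all others was ranked by Pearson's r over the 9 rats, as a description. Among 14462 other genes, Snap25 was the 5th most like Syn1, and Syn1 was the 6th most like Snap25. Seen from Rest, Syn1 and Snap25 lay in the bulk of the genes: 34.9% of genes had a lower r with Rest than Syn1 did, and 23.1% had a lower r than Snap25 did. An r above 0.9 was found for 214 genes with Syn1 (1.48%), 235 with Snap25 (1.62%) and 3 with Rest (0.0207%). An r below -0.9 was found for 54, 43 and 9 genes. The 2 genes most like Rest among those with a mean of at least 1 CPM were ENSRNOG00000026474 (r = 0.956) and ENSRNOG00000013149 (r = 0.928). The 2 least like it were ENSRNOG00000038916 (r = -0.953) and ENSRNOG00000004807 (r = -0.951), the first of them with only 11 to 27 reads per library. Libraries and scaling are shared by all of these values, and with 9 rats and 13905 genes ranked such extremes say little about any 1 gene.

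**Figure D4:**
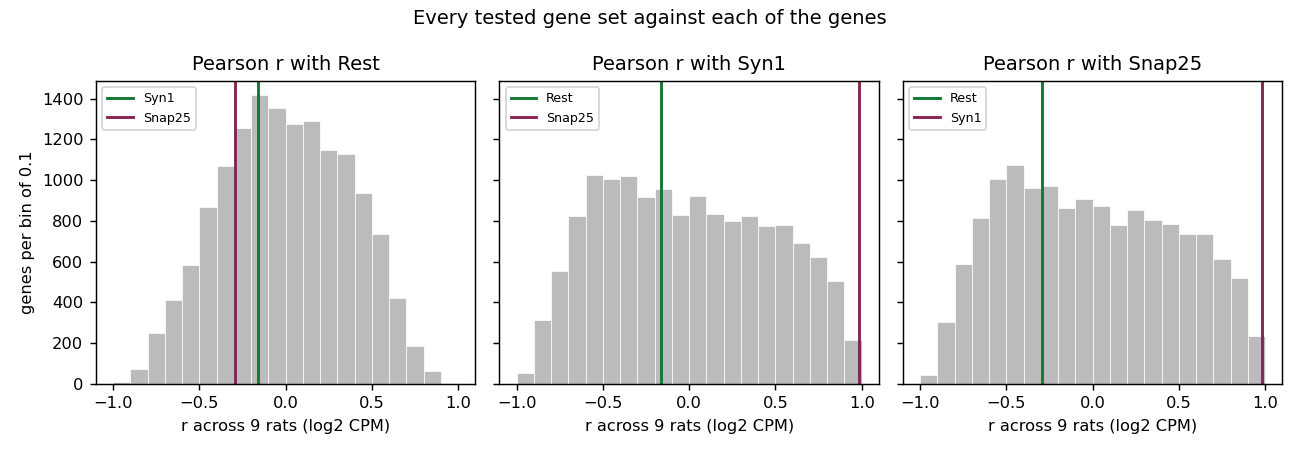
Number of tested genes (vertical axis, bins of 0.1) by their Pearson r over the 9 rats with Rest, Syn1 or Snap25 (horizontal axes); coloured lines mark the other 2 of the 3 genes. Syn1 and Snap25 mark each other at the right edge (r = 0.982), and Rest lies inside the bulk of the genes in their panels.

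The shared level of Syn1 and Snap25 followed the main axis of variation among the libraries. A family of 15 relations was computed, of 3 genes with 5 library measures: reads in genes, reads aligned to several places, reads outside genes, the share of the 10 most abundant genes, and the first component described above, which holds 33.9% of the variance of its 500 genes and leaves out the 3 genes. With this component Syn1 had r = -0.903 (exact permutation p = 0.00144, adjusted over 15 relations 0.0115) and rho = -0.917 (exact permutation p = 0.00131, adjusted 0.0152). Snap25 had r = -0.899 (exact permutation p = 0.00153, adjusted 0.0115) and rho = -0.900 (exact permutation p = 0.00203, adjusted 0.0152). With the groups centred r was -0.853 and -0.854, and without the 2 libraries farthest along the component it was -0.896 and -0.947. With any 1 rat left out, r stayed between -0.925 and -0.884 for Syn1 and between -0.927 and -0.888 for Snap25. Rest had r = 0.124 with the component (exact permutation p = 0.756, adjusted 0.996) and rho = 0.0833 (exact permutation p = 0.843, adjusted 0.982). Its r was 0.705 without the 2 farthest libraries, ELA rat 3 and control rat 4. None of the relations with the other 4 measures passed (smallest adjusted exact permutation p = 0.576 for r and 0.452 for rho). Syn1 and Snap25 thus moved with an axis along which control rat 1 lay among the ELA rats, and what sets that axis was not tested.

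**Figure D5:**
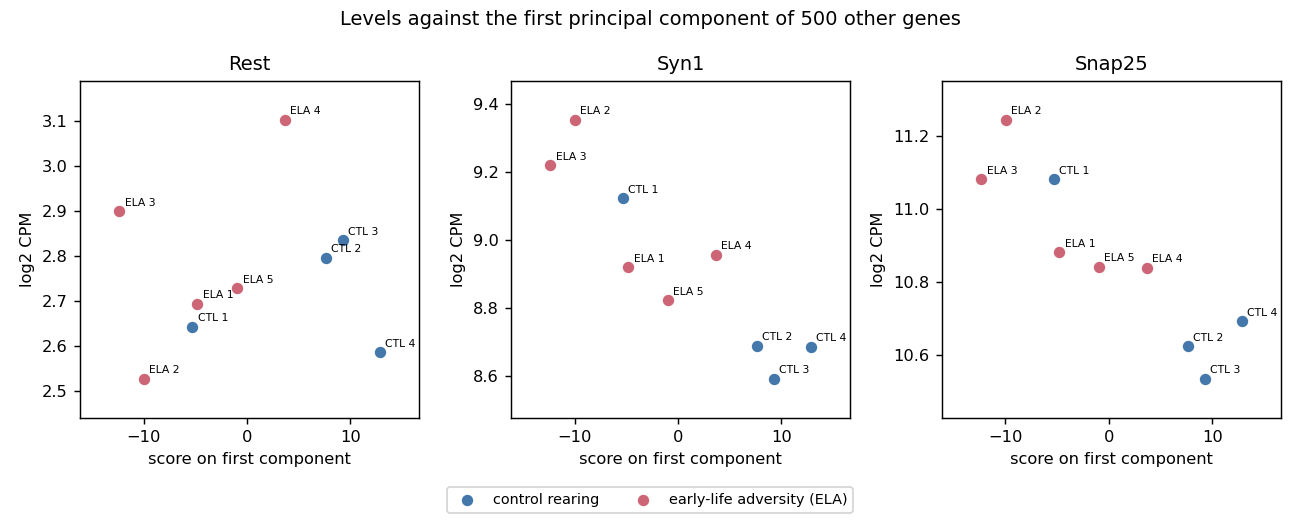
Log2 CPM of each gene (vertical axes) against the score of the library on the first principal component of 500 other genes (horizontal axes), 1 point per rat. Syn1 and Snap25 fall as the score rises (r = -0.903 and -0.899), with control rats 2 to 4 at the right end, and Rest shows no such order (r = 0.124).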

How the data were processed

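The deposited files, 1 for each rat, hold the raw counts that the authors made, whole numbers for 32545 rat Ensembl genes. Per the labels' protocols, polyadenylated RNA was made into libraries with the TruSeq v2 kit. STAR 2.5.0, HTSeq 0.6.1 and build rn6 are named in the submitters' processing notes. The annotation release was not given in the sources used here, nor was the strand setting, so reads of genes that overlap one of the 3 genes may be lost or joined. The 5 closing entries that name no gene were left out. They held 34.3 to 38.1% of the records in a file, and the rest, 11049282 to 17089188 reads, set the depth and the precision.

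The analysis ran in R 4.3.3 and used edgeR 4.0.16: filterByExpr (14463 genes kept), TMM scaling and the quasi-likelihood test (robust) with all 9 rats and no covariate, and Benjamini-Hochberg adjustment over all genes tested. The standard error is the absolute log2 fold change over the square root of F. Log2 CPM used a prior count of 2, and ratios had 2 reads added to each gene. Single values were tested by exact two-sided permutation over rats (smallest possible p 0.00794 for a group difference). The fit was tested on simulated data with 50 changed genes at each size of change. At an adjusted p under 0.05 it called 18% of those changed 1.25-fold, 60% at 1.5-fold and 98% at 2-fold. Of all 148 calls, 10 were false. Changes of 1.25-fold were thus mostly missed. Alternatives were other scalings, filters, priors and blocks, DESeq2 1.42.0, limma-voom (limma 3.58.1), and leaving out each rat.

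The 3 genes, their symbols and the tests were chosen with earlier results of these data known. The genes named beside them are the 2 with the highest and the 2 with the lowest r with Rest. Lists of Rest cofactors, other Rest targets, vesicle release genes and cell type markers had also been set, but the identifiers were not paired with symbols, so they were not analysed here. Replicate numbers were not taken to pair the rats, since the labels do not say that they mark a litter or batch. Deviations from the group means correlated between same-numbered rats at -0.129 to 0.241 by title number and -0.172 to 0.244 by description number. These correlations do not settle whether the numbers pair rats, so fits with such a block are given below.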

Additional observations from a re-analysis of the deposited data

Results flagged for a closer look

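In 20 sets of values, each a gene, ratio or library measure in 1 group, Dixon's ratio was used to look for a library far from its group. Chance passes about 1 of 20 sets, and 2 passed. Control rat 1 had 558 CPM of Syn1, against 386 to 413 CPM in the other control rats. In ELA rat 5 the share of reads that fell outside genes was 15.2%, and the other 4 ELA rats had 16.3 to 16.8%. Its values of Rest, Syn1 and Snap25 lay within the range of the other rats.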

How the results depend on the processing

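For Syn1 and Snap25 the log2 fold change stayed positive and the adjusted p above 0.05 in all 10 alternatives that kept every library (0.27 to 0.38 and 0.23 to 0.34, adjusted p 0.107 to 0.743 and 0.112 to 0.734) and in the 9 fits that each left out 1 rat (0.20 to 0.41 and 0.16 to 0.37). Rest ran from 0.0037 (limma-voom) to 0.11 with every library and from -0.00074 to 0.14 with 1 rat left out. With the replicate block by title number the log2 fold change was 0.094, 0.34 and 0.28 for Rest, Syn1 and Snap25 (edgeR adjusted p = 0.867, 0.425 and 0.497), and by description number 0.11, 0.32 and 0.27 (0.880, 0.107 and 0.161), so the block changed no call at the adjusted threshold. The unadjusted edgeR p of Syn1 was 0.0425 with the block by title number and 0.00152 by description number, and that of Snap25 was 0.0682 and 0.00387, against 0.0549 and 0.0688 without a block. Over all genes, 6 were called, compared with 11 with no filter, 142 by DESeq2, 173 by limma-voom with sample weights, 1 with the block by title number, 78 with the block by description number, and 2 to 130 with 1 rat left out (130 without control rat 1). The r of Rest with Syn1 turned to 0.137 without the 2 rats farthest in Rest and ran from -0.334 to 0.199 with 1 rat left out. That of Rest with Snap25 ran from -0.443 to 0.0044. That of Syn1 with Snap25 passed under every alternative. The 3 log2 ratios kept their direction and did not pass in any alternative, but with 1 rat left out the difference ran from 0.066 to 0.35 for Syn1 to Rest, from 0.036 to 0.31 for Snap25 to Rest and from -0.063 to -0.023 for Snap25 to Syn1. The cause of these changes was not tested. Of the 3 genes, Rest was the one most limited by depth.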
